A study of Mus musculus with 2 samples.

Results

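The expression of 6 receptor genes of the C-type lectin family was followed across leukocytes of mouse adipose tissue: Cd209a, Cd209d, Clec10a, Mgl2, Clec4n and Clec7a. They were taken by name, as lectins known from type 2 conventional dendritic cells (cDC2) and macrophages, and 5 of the 6 had a row among the 28692 genes of the matrices. Clec7a, which encodes Dectin-1, was not analysed here. The comparison was between 2 single-cell RNA sequencing libraries. The first came from wild-type C57BL/6 mice fed chow, which the labels call the control, and the second from wild-type C57BL/6 mice fed a ketogenic diet for 1 week. Both held CD45+ cells from adipose tissue (visceral, per the series title) of adult mice, CD45 being the surface protein common to leukocytes, and an intravenous label had been used to set tissue-resident cells apart from those in blood. How many mice, and of which sex, went into a library is not given in the sources used here.

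C-type lectin receptors bind sugar structures on microbes and on the body's own glycoproteins, and many of them take up what they bind. Cd209a and Cd209d are mouse relatives of human DC-SIGN, a receptor for mannose and fucose, and Cd209a is a customary marker of cDC2. Clec10a and Mgl2 encode the macrophage galactose-type lectins MGL1 and MGL2 (CD301a and CD301b), which bind galactose and N-acetylgalactosamine and mark alternatively activated macrophages and some cDC2. Clec4n encodes Dectin-2, which binds mannans and signals through the Fc receptor gamma chain, the kinase Syk and the adaptor Card9.

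The genes lie in family clusters, and the sequences are shown because such neighbours can share regulatory letters and reads. On GRCm38 (GENCODE M21), all 5 are annotated as protein-coding. Cd209a (ENSMUSG00000031494) lies at chr8:3743397-3748984 on the minus strand, and Cd209d (ENSMUSG00000031495) at chr8:3871824-3878555 on the same strand, 122.839 kb apart. Mgl2 (ENSMUSG00000040950) at chr11:70130329-70137550 and Clec10a (ENSMUSG00000000318) at chr11:70156197-70170834 are both on the plus strand, 18.646 kb apart. Clec4n (ENSMUSG00000023349) is at chr6:123229843-123247021 on the plus strand. RefSeq (GRCm38.p6) promoter entries were found for 3 of the 5. Each sequence below runs 5′ to 3′ on the gene's strand, from 240 bases before to 10 bases after the start of the transcript. Capitals mark matches, read on either strand, to GAGGAA, a core bound by the myeloid factor PU.1, or to the ETS and IRF composite motif (GGAA, any pair of bases, then GAAA), which PU.1 binds together with IRF4 or IRF8.
Cd209a, chr8:3748975-3749224, minus strand: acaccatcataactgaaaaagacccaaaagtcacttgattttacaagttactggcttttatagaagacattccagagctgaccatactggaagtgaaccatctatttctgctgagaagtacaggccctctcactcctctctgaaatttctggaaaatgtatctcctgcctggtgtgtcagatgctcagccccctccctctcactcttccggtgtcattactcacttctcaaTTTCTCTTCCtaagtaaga
Cd209d, chr8:3878490-3878739, minus strand: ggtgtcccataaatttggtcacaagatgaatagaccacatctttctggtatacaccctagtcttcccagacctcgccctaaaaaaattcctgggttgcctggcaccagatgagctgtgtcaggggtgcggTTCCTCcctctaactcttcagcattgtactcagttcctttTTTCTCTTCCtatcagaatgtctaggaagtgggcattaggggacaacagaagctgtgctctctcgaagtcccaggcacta
Mgl2, chr11:70130117-70130366, plus strand: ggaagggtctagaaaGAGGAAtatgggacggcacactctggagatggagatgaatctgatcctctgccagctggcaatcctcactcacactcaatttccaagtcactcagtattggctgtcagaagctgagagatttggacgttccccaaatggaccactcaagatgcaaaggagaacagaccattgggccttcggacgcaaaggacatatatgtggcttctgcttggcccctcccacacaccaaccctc
The composite motif had 1 match in Cd209a, beginning 9 bases before the start, and 1 in Cd209d, beginning 70 bases before it. Both were on the opposite strand, so the capitals show the reverse complement, and Mgl2 had none in this window. Among 32544 promoters cut to the same 250 bases, 741 (2.28%) held a match. GAGGAA was found once in Cd209d, 110 bases before the start, and once in Mgl2, 225 bases before it. It is a common string, present in 7619 of the 32544 windows (23.4%). The motifs share letters and can overlap, and a match here describes letters, not binding.

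Transcripts with shared stretches can give reads that fit either gene. The annotated transcripts of Clec10a and Mgl2 were 86.4% identical over 1040 aligned bases. Of the 50-base windows in the Clec10a transcript, 10.6% occurred in Mgl2. Of those in Mgl2, 16.5% occurred in another gene, 242 of these 261 in Clec10a. Within the last 500 bases, which 3′ libraries mostly read, 20.4% of Clec10a windows were shared, all with Mgl2, so values of Clec10a carry some uncertainty. For Mgl2 the share was 4.21%, with any of 20 genes, and the part of Clec10a in it was not resolved. Cd209a and Cd209d were 69.5% identical over 879 aligned bases and had 0 shared windows.

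The chow library held 4545 cells and 21570910 UMIs (counts of distinct transcripts by molecular barcode), and the ketogenic library 5614 cells and 26041785 UMIs. The authors' deposited table placed 4458 chow and 5559 ketogenic cells in clusters 0 to 12, with medians of 3550 and 3467 UMIs per cell, and 41 barcodes occurred among the clustered cells of both libraries. Levels are summed UMIs on the CPM scale (scaled to a common total of UMIs over the same cells), with exact Poisson intervals, and ratios carry exact conditional intervals. All intervals are 95% and cover counting error only. With 1 library per diet there is no replicate, no test between diets was possible, and each difference is one between these libraries. Clusters were named from markers that did not include the lectins: cluster 3 was macrophage-like (10 of 11 macrophage and 7 of 9 monocyte markers raised), cluster 1 natural killer (NK)-like, cluster 7 regulatory T-like, cluster 10 cycling-like and cluster 12 mature dendritic cell (DC)-like.

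The label cDC2 held only in part for cluster 5, where the Cd209 and galactose-type lectins were highest. There 3 of 10 cDC2 markers were raised, against 6 of 7 markers of plasmacytoid DC, so the cluster is called by its number. Of its 10 leading genes, 4 were Cd209a, Clec10a, Cd209d and Mgl2 themselves. The authors' clustering had used the expression of these genes, so their differences between clusters are given as a description. Cluster 8 stayed unnamed: its leading genes were Retnla, Fcrls, Lyz1 and Ear2, with 3 of 11 macrophage and 2 of 9 monocyte markers raised. Cluster 5 held 344 chow and 358 ketogenic cells, cluster 3 held 859 and 145, and cluster 8 held 362 and 47.

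The 5 genes fell into 2 patterns across clusters. Cd209a, Cd209d, Clec10a and Mgl2 were highest in cluster 5 of both libraries, while Clec4n was highest in cluster 3. Cd209a stood at 1201 CPM (1155 to 1247) under chow and 981 (944 to 1018) under the ketogenic diet in cluster 5. Cluster 8 came next at 236 and 238 CPM, then the cycling-like cluster 10 at 192 and 129. Each of these 3 steps was larger than counting error. Next under chow came the mature DC-like (108 CPM, 77.7 to 146), regulatory T-like (70.3 CPM) and macrophage-like clusters (64.0 CPM, 57.2 to 71.3), of which neighbours in the order were not separated.

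For Cd209d the levels in cluster 5 were 343 CPM (319 to 368) under chow and 235 (217 to 254) under the ketogenic diet. Cluster 8 followed at 75.6 and 67.5 CPM and was separated from the next cluster in both libraries. From the third place down, no step between neighbouring clusters exceeded counting error for Cd209d. Clec10a reached 461 CPM (433 to 490) and 546 (519 to 574) in cluster 5. Its next levels under chow, 104 CPM in cluster 3 and 103 in cluster 8, were not apart. Under the ketogenic diet cluster 8 (107 CPM) was above clusters 10 and 3 (56.5 and 49.3 CPM), which were not apart.

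Mgl2 was at 708 CPM (674 to 744) under chow and 499 (473 to 526) under the ketogenic diet in cluster 5. It had the closest follower of the 4, since cluster 8 stood at 328 and 254 CPM, so that cluster 5 was 2.16-fold (1.99 to 2.34) and 1.97-fold (1.53 to 2.57) above it. For Cd209a the same step was 5.10-fold and 4.12-fold. Clec4n was at 76.4 CPM (69.0 to 84.4) under chow and 221 (191 to 254) under the ketogenic diet in cluster 3. That was 7.18-fold (4.97 to 10.7) above cluster 8 under chow and 12.97-fold (9.39 to 18.2) above cluster 5 under the ketogenic diet.

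Cells that should lack these receptors give a background level, and whether it came from free RNA or from cells captured together was not tested. In NK-like cells the 5 genes lay between 3.89 CPM (Clec4n) and 17.8 CPM (Cd209a) under chow, and between 1.39 CPM (Cd209d and Clec4n) and 6.96 CPM (Cd209a) under the ketogenic diet. Cd209d in cluster 3, at 8.86 and 4.48 CPM, was close to this level (6.12 and 1.39 CPM in NK-like cells), and no difference between diets is read from it. This level differed between the libraries: Cd209a, Cd209d and Mgl2 (16.7 against 1.95 CPM) were higher in the NK-like chow cells. With the level in NK-like cells of the same library subtracted from each cluster, the 15 lectin ratios recomputed in clusters 3, 5, 8 and 10 stayed within their intervals, and that of Mgl2 in cluster 3 was -1.39 on the log2 scale, against -1.57.

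**Figure D1:**
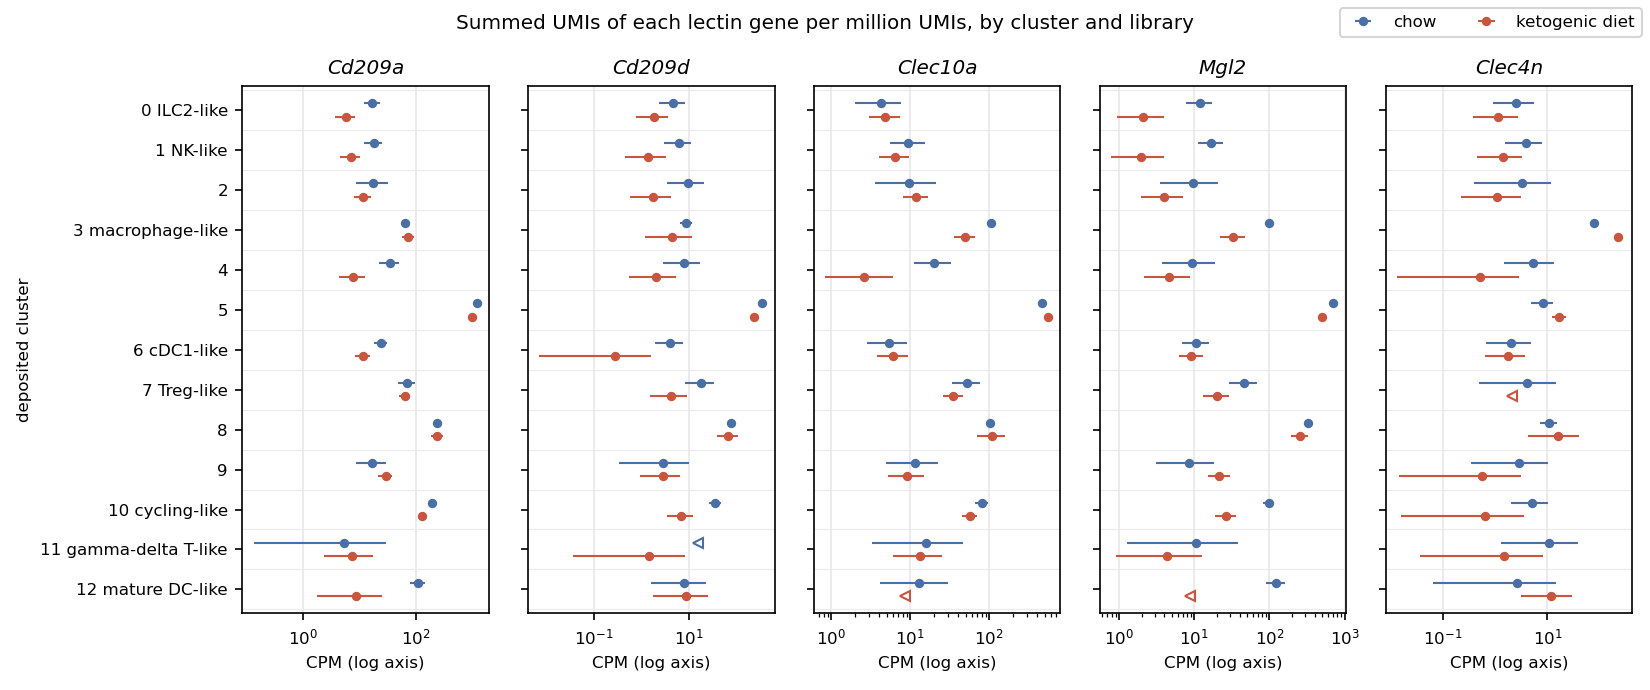
CPM of the 5 lectin genes on a log axis (1 panel per gene, each with its own range) in each of the 13 deposited clusters, chow in blue and ketogenic diet in red, with exact Poisson 95% intervals as bars. Open triangles mark sums of 0 UMIs, drawn at the level that 3 counts would give. Cluster 5 is highest for Cd209a, Cd209d, Clec10a and Mgl2 and cluster 3 for Clec4n, in both libraries.

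The libraries also differed in where each gene's UMIs came from. Under chow, cluster 5 held 63.3% of all Cd209a UMIs, 67.0% of Cd209d, 49.4% of Clec10a and 47.0% of Mgl2. Under the ketogenic diet the shares were 81.5%, 90.3%, 81.7% and 83.5%. Cluster 8 supplied 28.7% of chow Mgl2 UMIs but 3.87% under the ketogenic diet, and cluster 3 supplied 25.7% and 2.38% of Clec10a. Over all clustered cells Mgl2 was at 156 CPM under chow against 63.9, Cd209a at 196 against 129 and Clec10a at 96.4 against 71.4. Clec4n was lower in the ketogenic library as a whole, at 22.2 against 10.6 CPM, although it was higher within cluster 3. Fewer cells of a cluster and less RNA per cell add to the same sum over a library, so the comparisons below were made within clusters.

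Within cluster 5 the diets differed by less than 2-fold for each of the 4 genes measured there with at least 100 UMIs, and not in 1 direction. Over the 4242 genes with that many UMIs in cluster 5, 1.3% were at least 2-fold higher and 0.896% at least 2-fold lower under the ketogenic diet, and 0 of the 4 lectins were in either group. Cd209a had 2648 chow and 2710 ketogenic UMIs, with a log2 ratio of -0.29 (0.817-fold, 0.774 to 0.862). Mgl2, with 1562 and 1380 UMIs, had a log2 ratio of -0.50 (0.705-fold, 0.655 to 0.759), and Cd209d, with 756 and 650, one of -0.54 (0.686-fold, 0.617 to 0.763). Clec10a went the other way, with 1016 and 1509 UMIs and a log2 ratio of 0.25 (1.19-fold, 1.09 to 1.28). So the summed levels of the neighbouring genes Clec10a and Mgl2 differed between the libraries in opposite directions in this cluster. Against all genes tested there, 3982 of 4242 had a higher log2 ratio than Cd209d, 3949 than Mgl2, 3550 than Cd209a and 1090 than Clec10a. Lymphoid markers moved with these cells: summed CD4 T markers were at 60.3 CPM under chow and 216 in the ketogenic library (7 of 7 higher), CD8 T markers at 187 and 368 (6 of 6) and regulatory T markers at 42.2 and 119 (6 of 6). Cells of cluster 5 with 2 or more lymphoid UMIs made up 19.5% of its chow and 36.9% of its ketogenic cells. Without them the log2 ratios were -0.24 for Cd209a, -0.51 for Mgl2, -0.29 for Cd209d and 0.18 for Clec10a.

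Shares of cells with a UMI lay in the same direction as the levels. Mgl2 was found in 198 of 344 chow cells (57.6%, exact binomial interval 52.1 to 62.8) and in 153 of 358 ketogenic cells (42.7%, 37.6 to 48.0). After every cell was thinned to 1000 UMIs, which evens out depth, the shares were 33.7% and 24.7%. Thinned shares of Cd209a were 58.2% and 48.9% (89.2% and 86.6% before thinning), and those of Cd209d 18.4% and 14.4% (45.1% and 38.5%). Clec10a was found in 32.6% and 35.3% of thinned cells (72.4% and 75.7% before). In NK-like cells, with median depths of 2296.5 and 3147 UMIs against 6352.5 and 7722.5 in cluster 5, thinned shares of the 4 genes did not exceed 1.79%.

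The 4 genes were spread unequally over the cells of cluster 5. The median cell had 10.1 Cd209a UMIs per 10000 UMIs in the chow library against 6.13 in the ketogenic one, and 2.98 and 3.56 Clec10a UMIs per 10000. For Cd209d the median cell had 0 in both libraries, and the 35 chow and 36 ketogenic cells richest in it (10% of the cluster) held 65.9% and 69.8% of its UMIs. The cells richest in Mgl2 held 46.7% and 51.4% of Mgl2 UMIs, and those richest in Cd209a 30.0% and 33.6% of its UMIs. All 4 genes were found together in 86 of 344 chow cells and 54 of 358 ketogenic cells (15.1%), and 12 and 21 cells had none of them. In pairs, thinned cells with both genes were between 0.796 and 1.25 times as frequent as the product of the single shares, so within cluster 5 no pair of the 4 was strongly tied or mutually exclusive.

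In cluster 8 fewer cells carried a pair, but pairs exceeded the product of the single shares by more, a ratio that can reach higher values where shares are low. Cd209a and Cd209d were together in 2.46% of thinned chow cells there, against 12.02% in cluster 5. They were in the same cell 2.95 times as often as the product of their shares, Cd209a and Mgl2 2.08 times and Cd209d and Mgl2 2.15 times. In cluster 3 under chow the value for Cd209a and Cd209d was 5.86, on 13 unthinned cells with both, while Clec4n paired with each of the other 4 genes at between 0.913 and 0.971 times the product. Pairing of the ketogenic cells of clusters 3 and 8 rested on 11 cells or fewer per pair and is not read.

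Cluster 5 was then divided by the markers of plasmacytoid DC (Siglech, Bst2, Tcf4, Ccr9, Klk1, Cox6a2 and Runx2), and Cd209d parted from the other lectins. Bst2 (467 CPM under chow) and Tcf4 (142 CPM) supplied most UMIs of this list in cluster 5, against 60.8 CPM for Siglech. Cells with 3 or more UMIs of these markers numbered 120 in the chow library and 130 in the ketogenic library, against 224 and 228 with fewer, and were somewhat deeper (medians 6564.5 and 8402.5 UMIs against 6254.5 and 7498.5). Cd209d stood at 515 CPM (466 to 567) in the marked chow cells and 244 (219 to 271) in the others, a 2.11-fold difference (1.83 to 2.44). Under the ketogenic diet it was at 422 CPM (384 to 462) and 110 (94.2 to 127), which is 3.85-fold (3.24 to 4.59). The marked cells held 54.9% and 72.2% of the cluster's Cd209d UMIs.

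Cd209a, Clec10a and Mgl2 were lower in the marked cells in both libraries. For Cd209a the unmarked cells were 1.62-fold (1.48 to 1.77) higher under chow and 1.22-fold (1.13 to 1.32) under the ketogenic diet. For Clec10a the values were 1.44-fold and 1.62-fold, and for Mgl2 1.45-fold and 1.78-fold. Clec4n, with 47 UMIs or fewer per library in this cluster, was not separated (9.92 against 7.15 CPM under chow). After thinning to 1000 UMIs, Cd209d was found in 23.98% of marked and 15.4% of unmarked chow cells, and in 24.5% and 8.65% of ketogenic cells, so the order was the same at equal depth.

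Ratios between diets lay apart on the sides of this division for Cd209d and Cd209a, which could not be tested with 1 library each. In unmarked cells the log2 ratio of Cd209d was -1.15 (0.450-fold, 0.373 to 0.540), and in marked cells -0.29 (0.820-fold, 0.717 to 0.938). Cd209a had a log2 ratio of -0.40 in unmarked cells, whereas marked cells stood at 863 CPM (chow) and 866 CPM (ketogenic diet). Mgl2 had log2 ratios of -0.40 in unmarked and -0.70 in marked cells. Clec10a had 0.31 in unmarked cells, and in marked cells its interval held 1 (1.11-fold, 0.953 to 1.29). The marker list was itself 6 of 7 genes higher in the ketogenic cells of cluster 5, at a summed 806 CPM against 898 CPM. Unmarked cells had under 3 of its UMIs, so their ratios are not those of cells free of these markers.

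**Figure D2:**
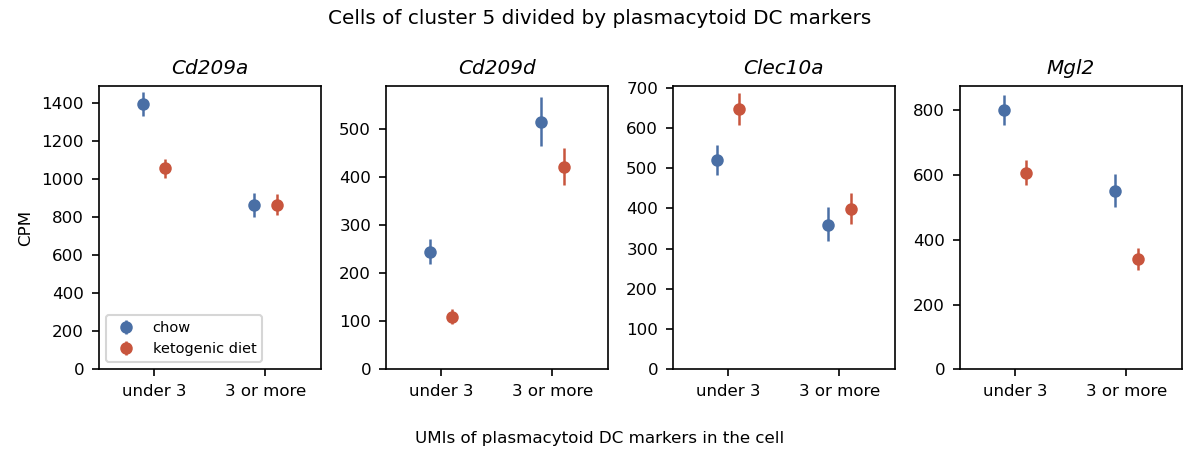
CPM of Cd209a, Cd209d, Clec10a and Mgl2 in cells of cluster 5 with under 3 or with 3 or more UMIs of plasmacytoid DC markers (x axis), chow in blue and ketogenic diet in red, with exact Poisson 95% intervals. Each panel has its own y axis starting at 0. Cd209d is higher in the marked cells and the other 3 genes are lower, in both libraries.

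In the macrophage-like cluster 3, Clec4n, Mgl2 and Clec10a differed by more than 2-fold between the diets and Cd209a did not. Clec4n had 388 UMIs in 859 chow cells and 197 UMIs in 145 ketogenic cells, that is 76.4 against 221 CPM, a log2 ratio of 1.53 (2.89-fold, 2.42 to 3.44). Only 24 of the 4983 genes with at least 100 UMIs in cluster 3 had a higher ratio. Mgl2 was at 97.9 CPM (497 UMIs) under chow and 32.5 (29 UMIs) under the ketogenic diet, and its log2 ratio was -1.57 (3.01-fold lower, 2.07 to 4.55). Clec10a was at 104 CPM (529 UMIs) and 49.3 (44 UMIs), a log2 ratio of -1.07 (2.11-fold lower, 1.55 to 2.95). Cd209a, at 64.0 and 72.8 CPM, had an interval that held 1 (1.14-fold, 0.858 to 1.49). Among the 4983 genes 2.45% were at least 2-fold higher and 2.75% at least 2-fold lower. Of the 4 lectins measured there, 1 was in the first group and 2 in the second. That second count was 1 without cells with lymphoid UMIs, where Clec10a was at -0.82. It was 0 with the same weights of C1q ranges in both libraries, given below.

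Shares of cells moved with the levels of Clec4n, Mgl2 and Clec10a. Cd209a was found in 15.8% of chow and 10.3% of ketogenic cells before thinning, but in 4.01% and 4.38% after it. Clec4n was found in 190 of 859 chow cells (22.1%, 19.4 to 25.05) and 62 of 145 ketogenic cells (42.8%, 34.6 to 51.2), or 6.26% and 14.0% after thinning. Thinned shares were 6.33% and 2.08% for Mgl2 (19.6% and 6.90% before) and 8.37% and 4.40% for Clec10a (31.7% and 17.2% before). NK-like cells had thinned shares of 0.328% and 0.112% for Clec4n, 1.64% and 0.181% for Mgl2 and 0.999% and 0.584% for Clec10a. The median depths of cluster 3 were close, at 5543 and 5589 UMIs. In the ketogenic library single cells weighed more: 1 cell held 14.7% of the Clec4n UMIs, 37.9% of the Mgl2 UMIs and 27.7% of the Cd209a UMIs of this cluster. Without the cells carrying 2 or more UMIs of lymphoid markers (16.3% of chow and 24.1% of ketogenic cells), the log2 ratio of Mgl2 was -2.71.

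Other markers in cluster 3 moved as well. Summed macrophage markers were at 24916 and 28419 CPM (5 of 11 higher, 6 lower under the ketogenic diet). Monocyte markers were at 7063 and 8133 (7 of 9 higher). The cDC2 markers were at 815 and 646 (4 higher, 5 lower, median log2 ratio -0.01), and neutrophil markers at 306 and 59.3 (1 higher, 4 lower). NK markers were at 81.1 and 218 CPM, with 7 of the 7 measured higher, CD4 T markers at 62.8 and 135 (6 of 6) and CD8 T markers at 146 and 309 (4 of 5). ILC2 markers summed to 399 and 142 CPM, though 5 of 9 were higher and 4 lower (median log2 ratio 0.19). Adipocyte or stromal markers were at 50.01 and 129, with 1 of 7 measured, and the ketogenic sum was Fabp4 alone. Without cells carrying 2 or more lymphoid UMIs the log2 ratios were -2.71 for Mgl2, -0.82 for Clec10a and 1.29 for Clec4n. A division by C1q, the complement genes of resident macrophages, follows, and the part of the other shifts in the lectin differences was not tested.

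Cells with 10 or more C1q UMIs per 10000 UMIs (C1q-high) numbered 261 in the chow and 21 in the ketogenic library, and C1q-low cells 598 and 124. The division is a range, and 97 chow and 12 ketogenic cells lay between 5 and 20. Mgl2 was at 183 CPM in C1q-high and 58.1 CPM in C1q-low chow cells. In the ketogenic library it was at 164 CPM (104 to 247) in C1q-high cells, an interval that includes the chow level, and at 7.97 CPM in C1q-low cells, from 6 UMIs. The difference of Mgl2 between diets was thus measured in C1q-low cells (7.30-fold lower, 3.29 to 20.1), while in C1q-high cells the interval of the ratio held 1 (0.9003-fold, 0.562 to 1.38). A single cell held 11 of the 23 ketogenic Mgl2 UMIs in C1q-high cells. Without the richest cell of each library the ratio was 0.589 (0.300 to 1.05) there and 0.0967 (0.0261 to 0.252) in C1q-low cells. A test of the difference between these ratios was not possible with 1 library each. Given the same weights of C1q-high and C1q-low cells in both libraries, the log2 ratio of Mgl2 in cluster 3 was -0.999. The C1q-high weight was the mean of the C1q-high shares of the libraries, 30.4% and 14.5%.

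Clec10a had a log2 ratio of -1.21 in C1q-low cells (96.6 and 41.2 CPM) and -0.32 in C1q-high cells (120 and 93.0 CPM, interval of the ratio 0.404 to 1.35). Clec4n was higher under the ketogenic diet on both sides of this division: 93.97 and 235 CPM in C1q-low cells (2.50-fold, 2.07 to 3.01) and 38.9 and 143 CPM in C1q-high cells (3.68-fold, 2.11 to 6.17). With the division at 20 per 10000 UMIs the C1q-high ratio was 1.98 (0.857 to 4.05), from 9 ketogenic UMIs, and its interval held 1. In both libraries Clec4n was lower in C1q-high cells, and Mgl2 was higher there. Cd209a under chow was at 33.9 CPM in C1q-high and 78.1 in C1q-low cells. Ly6c2, a marker of classical monocytes, was at 471 and 832 CPM in C1q-low cells and 143 and 629 in C1q-high cells, so both ranges carried more of it under the ketogenic diet. Ccr2, also on the monocyte list, was at 907 and 947 CPM in C1q-low cells and 954 and 1087 in C1q-high cells. Both intervals of its ratio held 1 at this division (0.960 to 1.13 and 0.959 to 1.35).

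**Figure D3:**
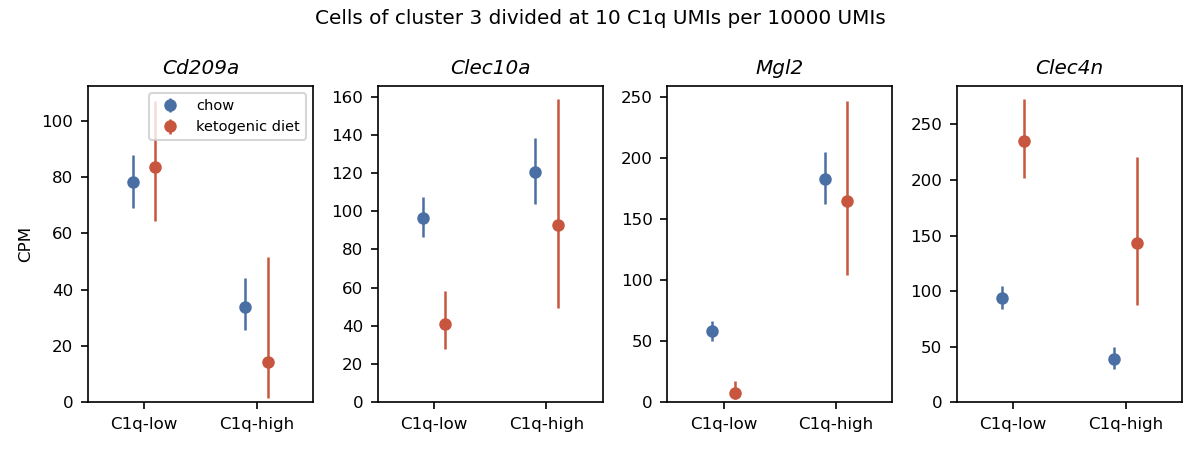
CPM of Cd209a, Clec10a, Mgl2 and Clec4n in C1q-low and C1q-high cells of the macrophage-like cluster 3, divided at 10 C1q UMIs per 10000 UMIs, chow in blue and ketogenic diet in red, with exact Poisson 95% intervals. Each panel has its own y axis starting at 0. Mgl2 differs between the libraries in C1q-low cells, and Clec4n is higher under the ketogenic diet in both ranges at this division, though in C1q-high cells its interval held 1 when divided at 20.

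Clusters 8 and 10 completed the comparison between diets. In cluster 8, 0.734% of 3134 genes were at least 2-fold higher and 4.85% at least 2-fold lower, and 0 of the 4 lectins measured were in either group. Mgl2 had 955 chow and 64 ketogenic UMIs there (0.775-fold, 0.592 to 0.998), and the intervals of Cd209a, Cd209d and Clec10a held 1. Of the measured cDC2 markers in cluster 8, 1 was higher and 7 lower in the ketogenic cells (664 and 572 CPM summed), and of the monocyte markers 2 and 6 (4022 and 3275 CPM), while CD4 T markers were at 67.0 and 143 CPM (5 of 5 higher). The median depth was 7938.5 and 4581 UMIs, and the part of these shifts in the ratios was not tested. Of the ketogenic Cd209a UMIs in cluster 8, 1 cell held 35.0%, and without the top cell of each library the log2 ratio moved from 0.027 to -0.49. With a mean over cells in place of the sum, that of Clec10a in cluster 8 moved from 0.086 to -0.59.

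In the cycling-like cluster 10, 3.71% of 3419 genes were at least 2-fold higher and 2.66% at least 2-fold lower, and 1 of 3 lectins was among the lower. That was Mgl2, at 98.7 and 26.3 CPM (136 and 42 UMIs, log2 ratio -1.89), where 1 ketogenic cell held 54.8% of the UMIs. Without the top cell of each library the log2 ratio was -2.84. Cd209a (192 and 129 CPM) and Clec10a (80.5 and 56.5 CPM) had log2 ratios of -0.57 and -0.51. These turned to 0.091 and 0.48 without cells carrying lymphoid UMIs, which removed 47.2% of chow and 77.3% of ketogenic cells. Summed macrophage markers in cluster 10 were at 2740 and 817 CPM, with 8 of 9 lower, NK markers at 215 and 529 CPM, CD4 T markers at 245 and 891 (7 of 7 higher), CD8 T markers at 458 and 1477 (6 of 6) and B-cell markers at 12.3 and 115 (5 of 5). The values without lymphoid cells bear on the lymphoid markers, and the part of the macrophage markers was not tested.

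Smaller clusters gave sums that rested on single cells. In the mature DC-like cluster 12, Mgl2 had 47 UMIs in 60 chow cells, of which 1 cell held 59.6%, and 0 UMIs in 49 ketogenic cells, where a floor of 3 counts is 8.67 CPM. Cd209a there had 42 and 3 UMIs, and 1 chow cell held 71.4% of the 42. In the regulatory T-like cluster 7, 1 cell held 77.1% of 35 chow Cd209a UMIs and 84.6% of 26 chow Clec10a UMIs. Cells of 2 types captured together were not removed here, and their part in these cells was not tested.

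**Figure D4:**
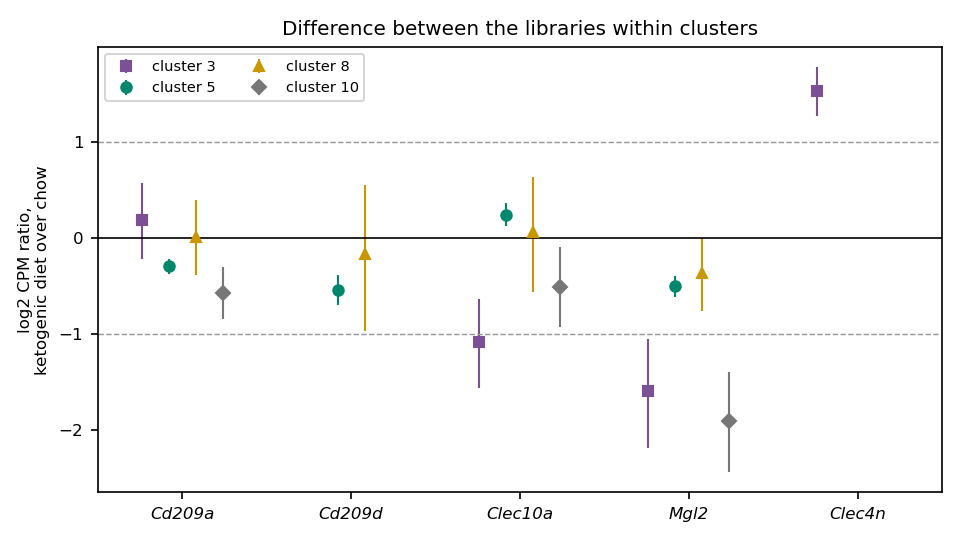
Log2 CPM ratio, ketogenic diet over chow, of each lectin gene with at least 100 UMIs in clusters 3, 5, 8 and 10, with exact conditional 95% intervals for counting error. Ratios are drawn without the 0.5 added to counts in the text, and dashed lines mark a 2-fold difference. Clec4n in cluster 3 lies above the upper line, Mgl2 in clusters 3 and 10 and Clec10a in cluster 3 lie below the lower one, and the 4 genes of cluster 5 lie between the lines.

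The genes most alike in level were found by Pearson correlation of log2(CPM + 10) over 26 sums (13 clusters in 2 libraries) among 9114 genes. These sums share libraries, depth and cluster makeup, so r is a description. Cd209d was closest to Cd163 (r = 0.957), a scavenger receptor for haptoglobin and haemoglobin, Ddr1 (0.926), a collagen receptor, and Slc27a3 (0.904), of the fatty acid transport protein family. Cd163 had its own level in cluster 5, at 61.7 and 47.0 CPM, against 6.50 and 1.12 CPM in the macrophage-like cluster 3. Cd209a was closest to Smim5 (0.899), Slamf9 (0.897) and Tnip3 (0.895). Mgl2 was closest to Slamf9 (0.911), Wfdc17 (0.898) and the C-type lectin Clec4b1 (0.890), and Clec10a to Cd163 (0.884), Smim5 (0.866) and Dab2 (0.865), an endocytic adaptor. Clec4n was closest to Sirpb1c (0.967), Dmkn (0.942) and Msrb1 (0.935), and Sirpb1c stood at 248 and 427 CPM in cluster 3. With each other, Cd209a, Cd209d, Clec10a and Mgl2 had r between 0.875 and 0.949, and with Clec4n between 0.197 and 0.411. By Spearman's rho the gap was narrow, at 0.627 to 0.917 among the 4 and 0.445 to 0.602 with Clec4n.

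Other C-type lectin receptors had mostly positive ratios in cluster 3, few of them past 2-fold. Of 32 listed, 12 had at least 100 UMIs there, of which 10 had a positive and 2 a negative log2 ratio. Past 2-fold, 1 was higher and 2 were lower, where 2.45% and 2.75% of all genes were (median log2 ratio 0.22, against 0.04 over all 4983 genes). Clec12a, an inhibitory receptor for uric acid crystals, went from 144 to 315 CPM, and the mannose receptor Mrc1 from 176 to 44.8 CPM, a log2 ratio of -1.96. Olr1, a receptor for oxidised low-density lipoprotein, had a log2 ratio of -1.26. Clec4e, Clec4a3 and Clec4a2, which sit beside Clec4n in family and were the highest of the list in cluster 3, had log2 ratios of 0.09, 0.31 and 0.60. In cluster 5, 9 were measured, with 5 positive and 4 negative log2 ratios and 0 higher and 1 lower past 2-fold (median 0.27 against 0.03, and 1.3% and 0.896% of all genes). Mrc1 was at 114 and 51.0 CPM, Clec12a at 79.3 and 158 (log2 ratio 0.99), Cd302 at 54.0 and 74.6, and Clec4b1 at 341 and 333.

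C-type lectin signalling genes were counted against 2.45% of all genes higher and 2.75% lower in cluster 3, and 1.3% and 0.896% in cluster 5. In cluster 3, 16 of 20 were measured, with 0 higher and 1 lower past 2-fold (median 0.13). That one was Nfatc3, at 24.02 and 11.2 CPM. The adaptors Fcer1g (2988 and 3827 CPM) and Tyrobp (3130 and 3923 CPM), which carry the signal of Dectin-2 and related receptors, had log2 ratios of 0.36 and 0.33, and the phosphatase Ptpn6 one of 0.96. In cluster 5, 14 were measured, with 0 higher and 1 lower (median -0.11). It was Syk, the kinase that Dectin receptors engage, at 119 and 53.9 CPM (log2 ratio -1.14). Fcer1g and Tyrobp had log2 ratios of -0.18 and -0.10 there.

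Cytokines and chemokines known as outputs of these receptors were lower in cluster 3 in 7 of 9 measured genes, 5 of them past 2-fold, where 2.75% of all genes were (median log2 ratio -1.23, against 0.04 over all genes). Cxcl2 went from 5256 to 1826 CPM, Il6 from 150 to 36.95, and Ccl17 from 141 UMIs to 1 UMI (27.8 and 1.12 CPM, interval of the ratio 0.00101 to 0.228). Il1b (0.28) and Tgfb1 (0.79) had positive log2 ratios. In cluster 5, 1 of 9 was higher and 2 lower past 2-fold, against 1.3% and 0.896% of all genes (median -0.08, against 0.03). Ccl17, a ligand of CCR4 made by cDC2, was at 585 and 112 CPM (log2 ratio -2.39), Cxcl2 at 285 and 130, and Ccl3 at 29.9 and 78.2.

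Of 16 transcription factors of cDC2 and macrophages, 15 were measured in cluster 3, with 1 higher and 2 lower past 2-fold (median -0.25). Of all genes there, 2.45% were higher and 2.75% lower. In cluster 5, 13 were measured, with 1 higher and 1 lower (median -0.13), against 1.3% and 0.896% of all genes. Irf8 was the higher one in both, at 53.2 and 123 CPM in cluster 3 and 96.1 and 208 in cluster 5. Irf4, which cDC2 need, was the lower one in cluster 5, at 66.7 and 30.4 CPM (log2 ratio -1.13). Rbpj, the effector of Notch signalling, was at 235 and 77.3 CPM in cluster 3 (log2 ratio -1.60) and had a log2 ratio of -0.72 in cluster 5, and Egr2 had one of -1.21 in cluster 3. Spi1, which encodes PU.1, had log2 ratios of 0.63 and 0.27.

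**Figure D5:**
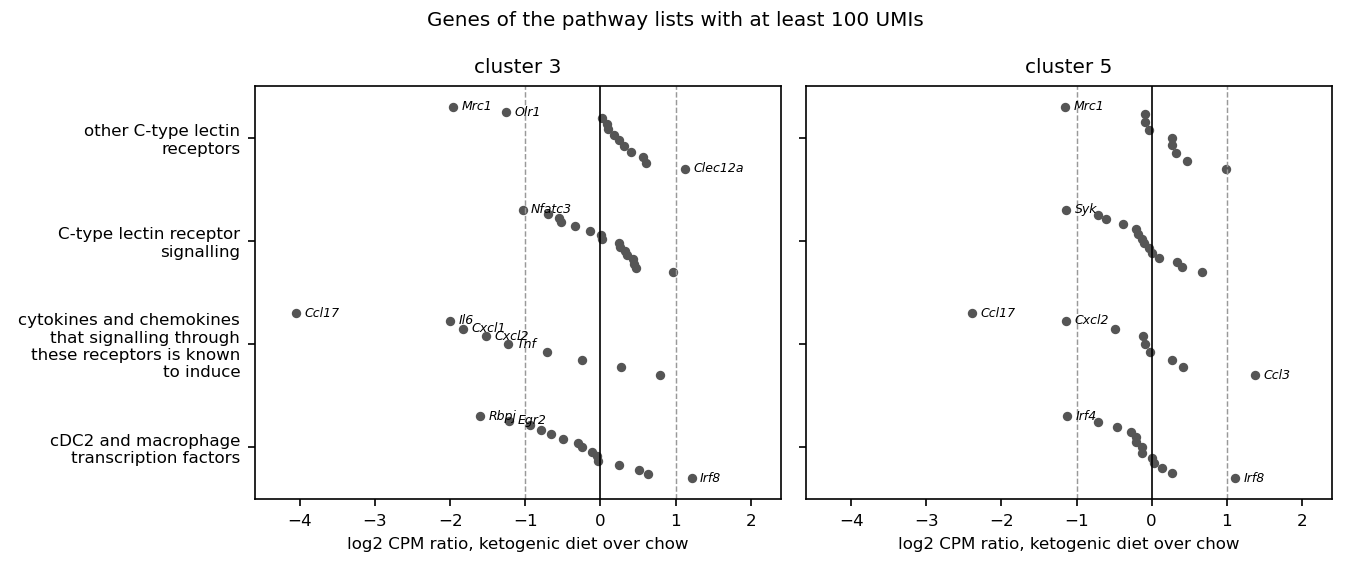
Log2 CPM ratio, ketogenic diet over chow, of every gene of the 4 lists with at least 100 UMIs in cluster 3 (left) and cluster 5 (right), each point 1 gene, sorted within its list. Dashed lines mark a 2-fold difference, and genes past it are named. Mrc1, Ccl17 and Cxcl2 lie below the lower line in both clusters and Irf8 above the upper line in both.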

How the data were processed

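Single-cell libraries were prepared with 10x Genomics reagents, per the labels' protocols. Cell Ranger, Seurat and mm10 are named per the submitters' processing notes, with no version or setting. The deposited matrices hold UMI counts per gene and cell, not normalised by the authors, and the deposited cluster table gives a cluster at resolution 0.5 for 10017 of 10159 cells. No doublet caller was run; leaving out the 5% of cells with the most UMIs, or cells with lymphoid UMIs, stood in for it.

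UMIs were summed per cluster and library (Python 3.11.15, numpy 2.4.6, scipy 1.17.1, pandas 2.3.3). A log2 ratio adds 0.5 to each count, and the background of 2-fold differences uses genes that reach 100 UMIs in a cluster, both libraries summed. A marker counted as raised when its CPM plus 20 was at least 2-fold above all other clustered cells. Thinning to 1000 UMIs used the hypergeometric expectation. Counting intervals and ratios were tested on simulated data.

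The receptor genes, lists and markers were chosen with earlier results of these data known. Named genes are the 3 most alike per receptor (at least 200 UMIs) and, per list and cluster, the 2 highest and 2 lowest log2 ratios and the 3 highest CPM. Further genes past 2-fold in small counts, and Ly6c2, Ccr2 and Fabp4, are named outside this rule. Describing both sides of the division by plasmacytoid DC markers and giving C1q ranges the same weights in both libraries were added after seeing the data. So were leaving out the richest cell of a C1q range, subtracting the level of NK-like cells and leaving out shared barcodes.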

Additional observations from a re-analysis of the deposited data

Results flagged for a closer look

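Clec10a had ratios on opposite sides of 1 in different clusters, each with an interval that did not hold 1. Its log2 ratio, ketogenic diet over chow, was 0.25 in cluster 5, -1.07 in the macrophage-like cluster 3 and -0.51 in the cycling-like cluster 10. The difference between these ratios was not tested, since each rests on 1 library per diet. Within cluster 5 the ratio stayed between 0.17 and 0.31, within cluster 3 between -1.18 and -0.82, and within cluster 10 between -0.80 and 0.48, over the alternatives run. The positive value in cluster 10 came without cells with lymphoid UMIs.

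A signal also appeared in cells that the authors' table leaves out. In the 55 ketogenic cells without a cluster, Cd209d had 22 UMIs, or 125 CPM (78.5 to 190), against 6 UMIs, or 27.0 CPM (9.91 to 58.8), in the 87 chow cells without a cluster. A single cell held 12 of the 22 UMIs.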

How the results depend on the processing

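Over 173 recomputed log2 ratios in clusters 3, 5, 8 and 10, 159 stayed within the counting interval of the reported value, and 14 did not. Among ratios whose own interval did not hold 1, Cd209a (0.091) and Clec10a (0.48) in cluster 10 turned their sign, both without cells with lymphoid UMIs. Ratios whose interval held 1 took either sign: -0.14 to 0.52 for Cd209a in cluster 3 and, in cluster 8, -0.54 to 0.18 for Cd209a, -0.49 to 0.20 for Cd209d and -0.59 to 0.38 for Clec10a. Without those cells Mgl2 in cluster 3 was -2.71 and Cd209d in cluster 5 was -0.29. Without cells with 3 or more UMIs of plasmacytoid DC markers, cluster 5 gave -0.40 for Cd209a, -1.15 for Cd209d and -0.40 for Mgl2. Means over cells gave -0.30 for Cd209d in cluster 5, and -0.54 for Cd209a and -0.59 for Clec10a in cluster 8. Without the top cell, Cd209a in cluster 8 was -0.49, and without the deepest cells Cd209d in cluster 5 was -0.37. The same weights of C1q ranges in both libraries gave -0.999 for Mgl2 in cluster 3. Leaving out shared barcodes, or subtracting the level of NK-like cells, moved no ratio out of its interval, and Clec4n in cluster 3 stayed between 1.29 and 1.60.

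Levels in cluster 5 (chow, then ketogenic) after subtracting 10% of UMIs as free RNA were 1312 and 1075 CPM for Cd209a, 375 and 258 for Cd209d, 501 and 599 for Clec10a, and 770 and 548 for Mgl2. Means over cells were 942 for ketogenic Cd209a, 262 for ketogenic Cd209d, and 655 and 445 for Mgl2. The share of genes at least 2-fold higher was 2.16% and 0.841% in cluster 5 and 1.59% and 0.328% in cluster 8 with minimums of 50 and 200 UMIs, and the share lower in cluster 8 was 2.57% at 200 UMIs. The genes most alike changed with the measure: of 3, Spearman correlation kept 1 for Cd209a and Cd209d, 0 for Clec10a, 2 for Mgl2 and 1 for Clec4n. The chow library alone kept 1 for Cd209a, 3 for Cd209d, 1 for Clec10a, and 0 for Mgl2 and Clec4n, and the ketogenic library alone kept 2, 2, 2, 1 and 1 in that order. The cause of these shifts was not tested. Protein features were not analysed here. No paired analysis was possible because each diet has 1 library.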

Other observations

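The number of receptors per cell differed between the clusters that carry them. In cluster 8, 29 of 362 chow cells (8.01%) held all 4 of Cd209a, Cd209d, Clec10a and Mgl2, and 83 cells (22.9%) held none. Of the 47 shallower ketogenic cells there, 4 (8.51%) held all 4 and 22 (46.8%) held none. In the macrophage-like cluster 3, 2 of 859 chow cells held all 4 and 433 (50.4%) held none, while 101 of 145 ketogenic cells (69.7%) held none. These counts are not thinned, and the median depths were 7938.5 UMIs in chow cells of cluster 8 and 5543 in those of cluster 3.

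In cluster 9, Mgl2 had 6 chow and 38 ketogenic UMIs, and 1 ketogenic cell held 68.4% of the latter.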
